A study of Mus musculus with 8 samples.

Results

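Krüppel-like factors (Klf proteins) were examined as a family in NMuMG cells, an untransformed mouse mammary gland line that undergoes epithelial-mesenchymal transition (EMT) upon TGFβ treatment. The family is taken here as 10 named genes, Klf2, Klf3, Klf4, Klf5, Klf6, Klf7, Klf9, Klf10, Klf11 and Klf13, each read by the probe set that carries that symbol and no other, among 19937 genes measured. RNA was hybridised to 8 Affymetrix whole-transcript arrays, 2 for each of 4 groups. The groups were labelled siKlf4+TGFβ (siRNA against Klf4, with 2 ng/ml TGFβ for 2 days), siKlf4 (the same siRNA, without TGFβ), siControl+TGFβ (control siRNA, with 2 ng/ml TGFβ for 2 days) and siControl (control siRNA, without TGFβ). All 4 groups are of the same cell line and all were transfected, and per the study's text siKlf4 is a pool of 2 siRNAs, which lower an mRNA without removing the gene. It is not stated if arrays of the same group go back to separate transfections, and p-values therefore measure only the spread between arrays, which may be technical. Values are log2 array values, so a difference of 1 is a 2-fold difference, and a call of higher or lower rests on a limma p under 0.05 after Benjamini-Hochberg adjustment over all 19937 genes.

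Klf proteins are transcription factors that bind GC-rich and CACCC-type DNA through C2H2 zinc fingers at the C terminus, a domain they share with the Sp proteins, and differ in the N-terminal parts that recruit co-activators or co-repressors. Klf4 and Klf5 are known from epithelia, where Klf4 is linked to differentiation and Klf5 to proliferation, while Klf9, Klf10, Klf11 and Klf13 bind the co-repressor Sin3a and Klf3 binds the co-repressor CtBP. Klf10 and Klf11 are also known as TGFβ-inducible early genes.

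Because the proteins of this family bind CACCC and GC boxes, the promoters of its own genes were read for these letters. RefSeq promoter windows on build GRCm38.p6, which hold 250 bases before and 50 after the transcription start, were matched for 8 of the 10 genes, all but Klf5 and Klf10. CACCC, searched on both strands, was present in 5 of the 8 windows (Klf2, Klf3, Klf7, Klf9 and Klf13), against 57.5% of 32851 mouse promoters of the same length. GGGCGG, the GC box, was present on either strand in 7 of the 8 (all but Klf9), against 35.7% of promoters. CAGAC, a Smad-type motif, was present in 1 of the 8 against 49.6%, and TGACTCA, an AP-1 motif, in 0 of the 8 against 5.2%. The GC content of the 8 windows ran from 58.3% (Klf7) to 77.7% (Klf11), and the promoters set against them were not matched for it. Adjoining copies of CACCC and GGGCGG can share bases, and overlapping copies were each counted. 3 windows are shown because they belong to the targeted gene, Klf4, and to the 2 genes with large siKlf4 differences whose windows contrast with it: Klf4 (chr4:55532426-55532725, minus strand) holds 4 GGGCGG and 0 CACCC, Klf7 (chr1:64121340-64121639, minus strand) 1 GGGCGG and 3 CACCC, and Klf9 (chr19:23140976-23141275, plus strand) 0 GGGCGG and 1 CACCC. The Klf7 window lies inside the annotated gene, which ends at 64122345 on chromosome 1, and so reads a start within the gene. The windows of Klf4 and Klf9 span the outer end of their genes. Of the windows not shown, Klf2 holds 2 GGGCGG and 1 CACCC, Klf3 6 and 5, Klf6 1 and 0, Klf11 4 and 0, and Klf13 3 and 1. Whether motif content goes with the siKlf4 differences was not tested. Capitals mark CACCC or GGGCGG on either strand, so that GGGTG and CCGCCC are the same motifs read on the other strand.
Klf4: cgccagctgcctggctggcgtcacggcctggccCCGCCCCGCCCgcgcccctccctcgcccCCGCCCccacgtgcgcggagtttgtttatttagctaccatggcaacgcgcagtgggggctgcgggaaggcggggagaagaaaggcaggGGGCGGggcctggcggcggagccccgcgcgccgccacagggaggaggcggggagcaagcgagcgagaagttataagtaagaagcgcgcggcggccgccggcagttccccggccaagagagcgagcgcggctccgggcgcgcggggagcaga
Klf7: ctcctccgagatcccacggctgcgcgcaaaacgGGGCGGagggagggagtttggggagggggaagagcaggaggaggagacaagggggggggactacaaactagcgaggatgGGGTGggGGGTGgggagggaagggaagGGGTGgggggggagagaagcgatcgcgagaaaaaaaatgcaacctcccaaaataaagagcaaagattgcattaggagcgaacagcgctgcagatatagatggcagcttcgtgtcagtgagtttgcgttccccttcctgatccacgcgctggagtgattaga
Klf9: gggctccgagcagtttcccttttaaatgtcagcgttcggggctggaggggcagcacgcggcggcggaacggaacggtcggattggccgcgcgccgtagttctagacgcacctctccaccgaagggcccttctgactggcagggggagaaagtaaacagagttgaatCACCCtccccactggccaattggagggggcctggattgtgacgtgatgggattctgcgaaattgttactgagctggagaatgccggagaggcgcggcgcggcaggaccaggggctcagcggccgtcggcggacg

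The array medians lay between 4.9 and 5.0, and the 2 arrays of a group correlated with r between 0.992 and 0.995 across 34760 probe sets. Of the epithelial markers, 6 of 10 were above the median gene, led by the keratins Krt8 at a mean of 13.2, Krt18 at 12.5 and Krt19 at 12.04 and by E-cadherin (Cdh1) at 10.5, while Epcam (3.98), Cldn7 (4.40), Esrp1 (3.90) and Grhl2 (4.25) were below it. Of leukocyte, endothelial, fibroblast and adipocyte markers, 1 of 4, 0 of 4, 2 of 5 and 0 of 3 measured were above it, the fibroblast genes being the collagens Col1a1 and Col1a2 and the leukocyte gene Cd68, while Ptprc (3.74), Adgre1 (3.64), Dcn (3.11) and Lum (2.83) were dim. Some markers moved with the labels. Of the epithelial markers, Krt8 and Krt18 were higher and Krt19 and Ocln lower in siKlf4, both with and without TGFβ, and Cdh1 was higher with TGFβ in siKlf4 by 0.67. Col1a1 was higher in siKlf4 by 0.65 with TGFβ and 1.13 without, Cd68 was higher in siKlf4 with TGFβ by 0.61, and Cd68 was lower with TGFβ by differences of −1.09 in siKlf4 and −1.3 in siControl. None of the other leukocyte and fibroblast markers, and none of the endothelial and adipocyte markers, was called in these 4 comparisons. Averaged over each list, the fibroblast markers lay between 4.70 and 4.92 on siKlf4 arrays and 4.54 and 4.67 on siControl arrays, and the leukocyte markers between 4.53 and 4.74 on arrays labelled TGFβ and 4.84 and 4.99 on those without. Their part in the Klf results was not tested.

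Klf4 itself was the check of the siRNA labels. It read 7.43 and 7.24 on the arrays labelled siKlf4+TGFβ, 8.03 and 7.91 on those labelled siKlf4, 7.46 and 7.46 on those labelled siControl+TGFβ and 8.60 and 8.43 on those labelled siControl. The siControl arrays without TGFβ were highest, the siKlf4 arrays without TGFβ next, and the 2 groups labelled TGFβ lay together at the bottom. Without TGFβ, Klf4 was lower in the arrays labelled siKlf4 by 0.54 on the log2 scale (difference −0.54, SE 0.099, adjusted p = 0.00369), and their values did not overlap. With TGFβ, the difference was −0.13 (95% interval −0.35 to 0.10, adjusted p = 0.444), which is not past the threshold. The TGFβ differences of Klf4 were −0.63 in siKlf4 (adjusted p = 0.00295) and −1.05 in siControl (adjusted p = 0.000357). The latter and the siKlf4 difference without TGFβ share the siControl arrays as reference. They are therefore compared by siKlf4 against siControl+TGFβ, where Klf4 was 0.51 higher in siKlf4 (SE 0.099, adjusted p = 0.00509). Every array labelled TGFβ thus read below every array without it. Klf4 followed the siRNA label only without TGFβ, and with TGFβ no difference between the siRNA labels was detectable. In bulk RNA, fewer cells with Klf4 mRNA and less of it per cell cannot be told apart.

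A gene that TGFβ is known to induce separated the arrays by the siRNA label. TGFβ was given for 2 days, and no earlier time was measured on these arrays. Smad7, the inhibitory Smad, read 9.66 and 9.61 on the arrays labelled siKlf4+TGFβ and 9.41 and 9.60 on those labelled siKlf4, against 7.57 and 7.70 on those labelled siControl+TGFβ and 8.12 and 8.02 on those labelled siControl. All 4 arrays labelled siKlf4 were above all 4 labelled siControl. Its siKlf4 differences were 2.00 with TGFβ (adjusted p = 1.10e-06) and 1.44 without (adjusted p = 1.08e-05), whereas its TGFβ differences were 0.13 in siKlf4 (adjusted p = 0.514) and −0.44 in siControl (adjusted p = 0.0169). The last was lost without siControl replicate 1 (adjusted p = 0.0892), siControl+TGFβ replicate 1 (0.137) or siControl+TGFβ replicate 2 (0.0524). Snai1 and Tgfbr1, from the list of Klf targets used below, were also higher on all 4 siKlf4 arrays than on all 4 siControl arrays. Snai1 read 7.04 and 7.24 on siKlf4+TGFβ and 7.02 and 7.40 on siKlf4 arrays. On siControl+TGFβ arrays it read 6.10 and 6.12, and on siControl arrays 5.86 and 6.15. Other genes, such as Hdac1 below, separated the arrays by the TGFβ label. These values do not settle if the siRNA or TGFβ labels of some arrays were exchanged, which was not tested. Every direction given here holds only for the arrays as labelled.

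The comparison of arrays labelled siKlf4 and siControl asks how the family's mRNAs stood after Klf4 was targeted. Without TGFβ, 5 of the 10 genes were higher in siKlf4 (Klf6, Klf7, Klf9, Klf11 and Klf13), 2 were lower (Klf4 and Klf5) and 3 did not pass the test, where 9.98% of all genes were higher and 9.71% lower. With TGFβ, 5 were higher (Klf6, Klf7, Klf9, Klf10 and Klf11), 1 was lower (Klf5) and 4 did not pass, where 12.3% of all genes were higher and 11.9% lower. Klf6, Klf7, Klf9 and Klf11 were called higher and Klf5 lower in both comparisons. These share no array but share 1 estimate of the spread over all 8 arrays. The median difference over the 10 genes was 0.36 with TGFβ, against −0.03 over all genes, and 0.25 without TGFβ, against 0.00 over all genes. A moderated F test over the 4 groups called 8 of the 10, all but Klf2 and Klf3, where it called 33.3% of all genes. Under the ordinary analysis of variance, Klf11 was not called with TGFβ (adjusted p = 0.0750) or without (0.111), nor was Klf13 without TGFβ (0.149). All 10 genes had a mean level above the dimmest 30% of genes, whereas the shares of all genes include those dimmest ones. The 10 genes were chosen with earlier results of these data known. Of the 7 other Klf genes measured, the F test called 0.

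**Figure D1:**
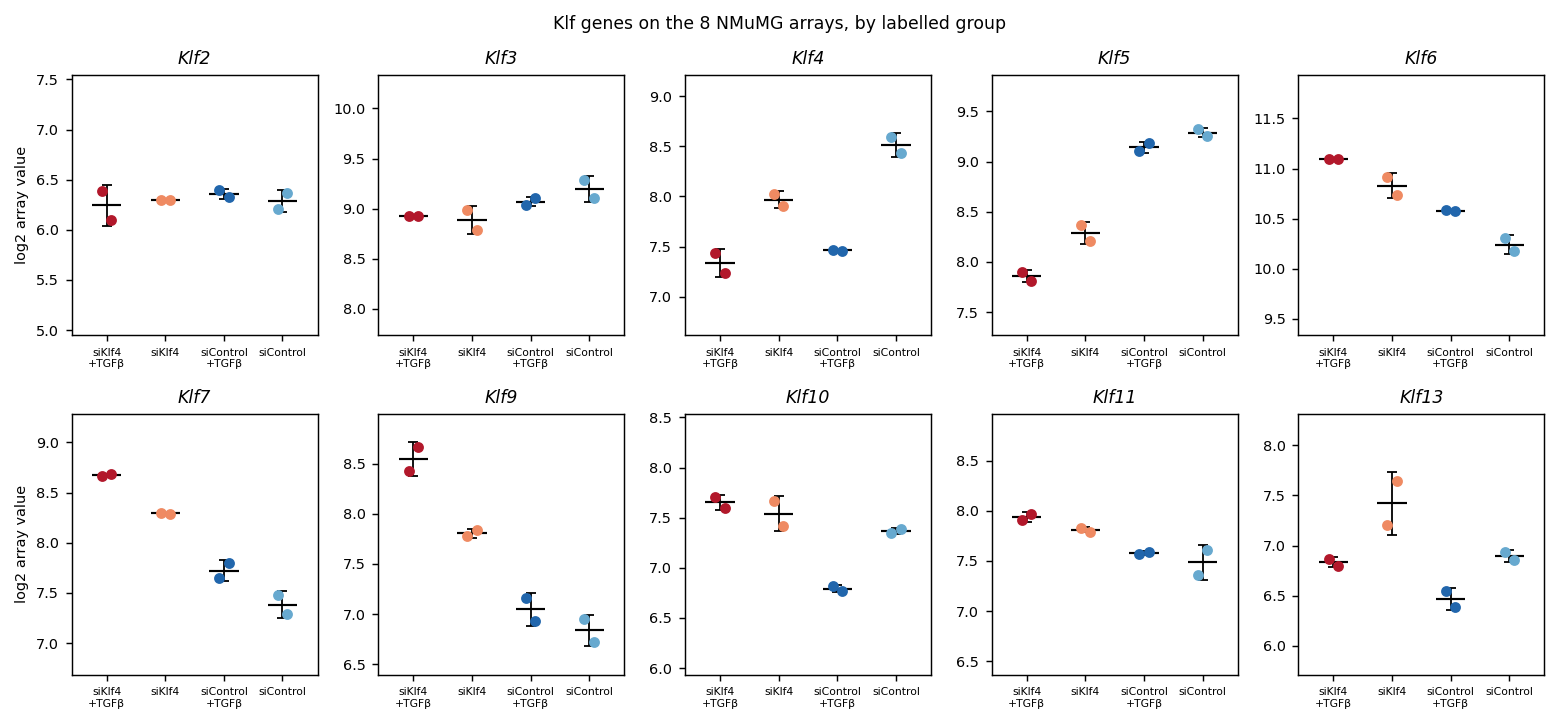
Log2 array values (y axis, the same span in each panel, set at the level of the gene) of the 10 Klf genes in the 4 labelled groups (x axis); each point is an array, each horizontal line a group mean and each bar ± 1 SD (n = 2). Klf6, Klf7 and Klf9 stand highest on the arrays labelled siKlf4+TGFβ and Klf5 lowest, while Klf4 is highest on those labelled siControl.

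Among the activators, Klf5 had the largest decrease. It read 7.90 and 7.81 on the arrays labelled siKlf4+TGFβ, against 9.10 and 9.18 on those labelled siControl+TGFβ, and 8.36 and 8.21 on those labelled siKlf4, against 9.32 and 9.26 on those labelled siControl. All 4 siKlf4 arrays lay below all 4 siControl arrays. The difference was −1.29 with TGFβ (SE 0.087, a 2.44-fold lower level, adjusted p = 7.13e-06) and −1.0 without (SE 0.087, 2.00-fold lower, adjusted p = 5.04e-05). Klf5 is a factor of basal and proliferating epithelial cells.

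Klf6, a widely expressed factor first described as a core promoter binding protein, read 11.10 and 11.10 on the arrays labelled siKlf4+TGFβ, against 10.59 and 10.57 on those labelled siControl+TGFβ. Without TGFβ it read 10.91 and 10.74 on the arrays labelled siKlf4, against 10.31 and 10.18 on those labelled siControl. No siKlf4 array overlapped a siControl array, and the differences were 0.52 with TGFβ (SE 0.089, adjusted p = 0.00219) and 0.59 without (SE 0.089, adjusted p = 0.00134). Klf7, its close relative, known from neurons and from repression of fat cell differentiation, had nearly the same difference in both settings. It read 8.66 and 8.68 on the arrays labelled siKlf4+TGFβ, against 7.65 and 7.79 on those labelled siControl+TGFβ, and 8.30 and 8.29 on those labelled siKlf4, against 7.48 and 7.29 on those labelled siControl. Klf7 was thus 0.95 higher with TGFβ (1.93-fold, adjusted p = 6.17e-05) and 0.91 higher without (1.88-fold, adjusted p = 0.000123), again without overlap.

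Klf2, an activator best known from endothelium and quiescent T cells, did not separate the groups. It read 6.39 and 6.10 on the arrays labelled siKlf4+TGFβ, 6.30 and 6.30 on those labelled siKlf4, 6.40 and 6.32 on those labelled siControl+TGFβ and 6.21 and 6.37 on those labelled siControl. The siKlf4 difference was −0.11 with TGFβ (95% interval −0.36 to 0.13, adjusted p = 0.552) and 0.01 without (−0.23 to 0.26, adjusted p = 0.967), so a difference of the size seen for Klf5, Klf7 or Klf9 lies outside both intervals. The CtBP-binding repressor Klf3 read 8.93 and 8.92 on the arrays labelled siKlf4+TGFβ, against 9.04 and 9.11 on those labelled siControl+TGFβ, and 8.98 and 8.79 on those labelled siKlf4, against 9.29 and 9.10 on those labelled siControl. Its differences were −0.15 with TGFβ (adjusted p = 0.360) and −0.31 without (adjusted p = 0.0562). The Klf3 difference without TGFβ passed the threshold when siControl replicate 2 (adjusted p = 0.0405) or siKlf4 replicate 1 (0.0355) was left out.

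Of the Sin3a-binding repressors, Klf9 had the widest range of group means in the family, 1.71 on the log2 scale. Klf9, also known as basic transcription element-binding protein and as a target of glucocorticoid and thyroid hormone receptors, read 8.43 and 8.67 on the arrays labelled siKlf4+TGFβ, against 7.16 and 6.93 on those labelled siControl+TGFβ. Without TGFβ it read 7.78 and 7.84 on the arrays labelled siKlf4, against 6.95 and 6.72 on those labelled siControl. Every siKlf4 array was above every siControl array, with differences of 1.5 with TGFβ (SE 0.12, 2.83-fold, adjusted p = 1.96e-05) and 0.97 without (SE 0.12, 1.96-fold, adjusted p = 0.000423).

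Klf10, the TGFβ-inducible early gene, read 7.71 and 7.60 on the arrays labelled siKlf4+TGFβ, against 6.82 and 6.77 on those labelled siControl+TGFβ, and 7.66 and 7.41 on those labelled siKlf4, against 7.34 and 7.38 on those labelled siControl. The siControl+TGFβ arrays were the low ones, below the other 6. Klf10 was 0.86 higher in siKlf4 with TGFβ (SE 0.098, adjusted p = 0.000173), and its difference without TGFβ was 0.17 (95% interval −0.05 to 0.40, adjusted p = 0.30). Klf11, its close relative, read 7.90 and 7.97 on the arrays labelled siKlf4+TGFβ, against 7.57 and 7.59 on those labelled siControl+TGFβ, and 7.83 and 7.79 on those labelled siKlf4, against 7.36 and 7.61 on those labelled siControl. Its differences of 0.36 with TGFβ (adjusted p = 0.0222) and 0.32 without (adjusted p = 0.0423) were near the threshold. The Klf11 call with TGFβ was lost when any of the 4 arrays compared was left out (adjusted p 0.0728 to 0.138), and that without TGFβ when any array of the series but siControl replicate 2 was left out (0.0710 to 0.209), with a difference of 0.20 without siControl replicate 1.

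Klf13, which has a role in T cells and heart, read 6.87 and 6.80 on the arrays labelled siKlf4+TGFβ, against 6.55 and 6.39 on those labelled siControl+TGFβ, and 7.20 and 7.64 on those labelled siKlf4, against 6.94 and 6.86 on those labelled siControl. The 2 siKlf4 arrays without TGFβ differed from each other by more than those of any other group. The difference was 0.37 with TGFβ (SE 0.13, adjusted p = 0.0844) and 0.52 without (SE 0.13, adjusted p = 0.0238). In a fit on the 4 arrays compared, Klf13 passed with TGFβ (adjusted p = 0.0153) and its call without TGFβ was lost (0.0619). With TGFβ it also passed under trend and robust options of eBayes (0.0453), but not after renewed normalization or under the ordinary analysis of variance. Without TGFβ the Klf13 call was lost without siKlf4 replicate 2 (0.30, adjusted p = 0.108), siControl replicate 1 (0.0620) or siControl replicate 2 (0.104), and kept without siKlf4 replicate 1 (0.74, 0.00240). With TGFβ, Klf13 passed the threshold when siKlf4 replicate 1 or siKlf4 replicate 2 was left out (adjusted p = 0.0162 for each).

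**Figure D2:**
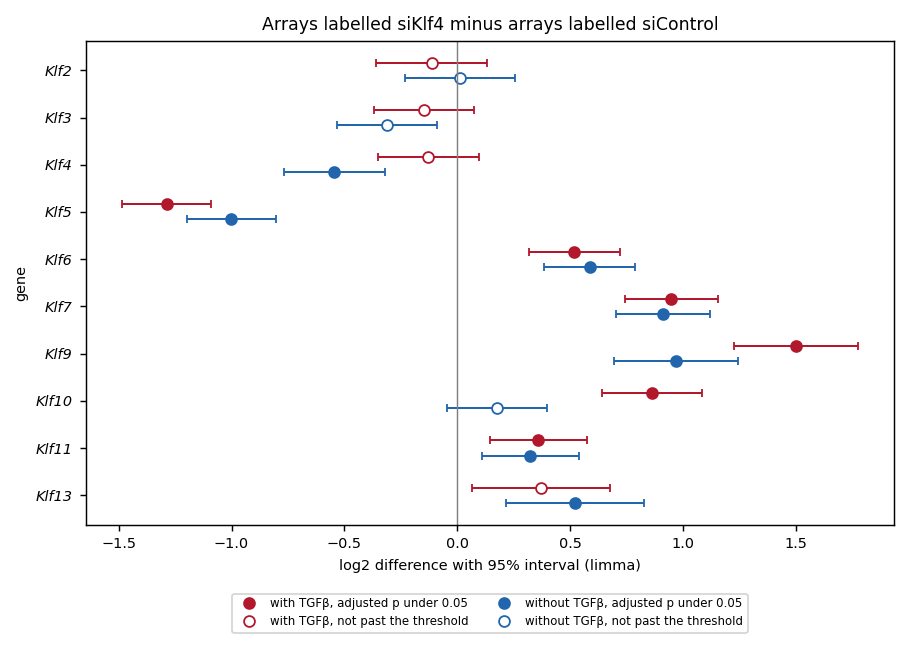
Log2 difference of arrays labelled siKlf4 minus arrays labelled siControl (x axis) for the 10 Klf genes (y axis), with TGFβ (red, upper of each pair) and without (blue); bars are 95% intervals from limma and filled points have an adjusted p under 0.05. Klf9 lies farthest right, at 1.5 with TGFβ, and Klf5 farthest left, at −1.29 with TGFβ.

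The comparison of arrays labelled with and without TGFβ was made within each siRNA label, and shares its arrays with the siKlf4 comparisons above. In siKlf4, 2 of the 10 genes were higher with TGFβ (Klf7 and Klf9), 3 were lower (Klf4, Klf5 and Klf13) and 5 did not pass, where 6.01% of all genes were higher and 6.87% lower. In siControl, 2 were higher (Klf6 and Klf7), 2 were lower (Klf4 and Klf10) and 6 did not pass, where 5.81% of all genes were higher and 6.65% lower. The ordinary analysis of variance called 2 in siKlf4 (Klf4 and Klf5) and 1 in siControl (Klf4). The TGFβ difference of Klf9 was 0.74 in siKlf4 (SE 0.12, adjusted p = 0.00377), against 0.21 in siControl (adjusted p = 0.340). For Klf10 it was 0.11 in siKlf4 (adjusted p = 0.598), against −0.57 in siControl (SE 0.098, adjusted p = 0.00557). This TGFβ-inducible early gene was thus lower in the siControl arrays labelled TGFβ, which were taken at 2 days. Earlier times were not measured on these arrays. The Klf10 call in siControl was lost without siControl+TGFβ replicate 2 (adjusted p = 0.0514).

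Klf5 differed by −0.43 with TGFβ in siKlf4 (adjusted p = 0.0110) and by −0.15 in siControl (adjusted p = 0.361). The Klf5 call was lost without siKlf4 replicate 1 (adjusted p = 0.0596), siKlf4+TGFβ replicate 1 (0.0507) or siKlf4+TGFβ replicate 2 (0.101). Klf13 was lower with TGFβ in siKlf4 (−0.59, adjusted p = 0.0207), a call lost without siKlf4 replicate 2 (−0.37, adjusted p = 0.0847), siKlf4+TGFβ replicate 1 (0.0874) or siKlf4+TGFβ replicate 2 (0.133). In siControl its difference of −0.43 (adjusted p = 0.0740) passed when siKlf4 replicate 1 or siKlf4 replicate 2 was left out (0.0162 for each). That siControl difference of Klf13 also passed in a fit on the 4 arrays compared (adjusted p = 0.0384) and under trend and robust options of eBayes (0.0304). It did not pass after renewed normalization or under the ordinary analysis of variance. Klf7 was higher with TGFβ by 0.38 in siKlf4 (adjusted p = 0.0267) and by 0.34 in siControl (adjusted p = 0.0436). The Klf7 call in siKlf4 was lost without any of the 4 arrays compared (0.0795 to 0.149), and that in siControl without any array of the series but siControl replicate 1 (0.0545 to 0.274). Klf6 was higher by 0.34 in siControl (adjusted p = 0.0385), a call lost without any of the siKlf4+TGFβ, siControl+TGFβ or siControl arrays (0.0566 to 0.181), and differed by 0.27 in siKlf4 (adjusted p = 0.0877). The Klf6 difference in siKlf4 passed under trend and robust options of eBayes (adjusted p = 0.00540). It also passed after renewed quantile (0.0456) or cyclic loess normalization (0.0459). The Klf2, Klf3 and Klf11 differences lay between −0.13 and 0.13 in both siRNA groups, and none passed.

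**Figure D3:**
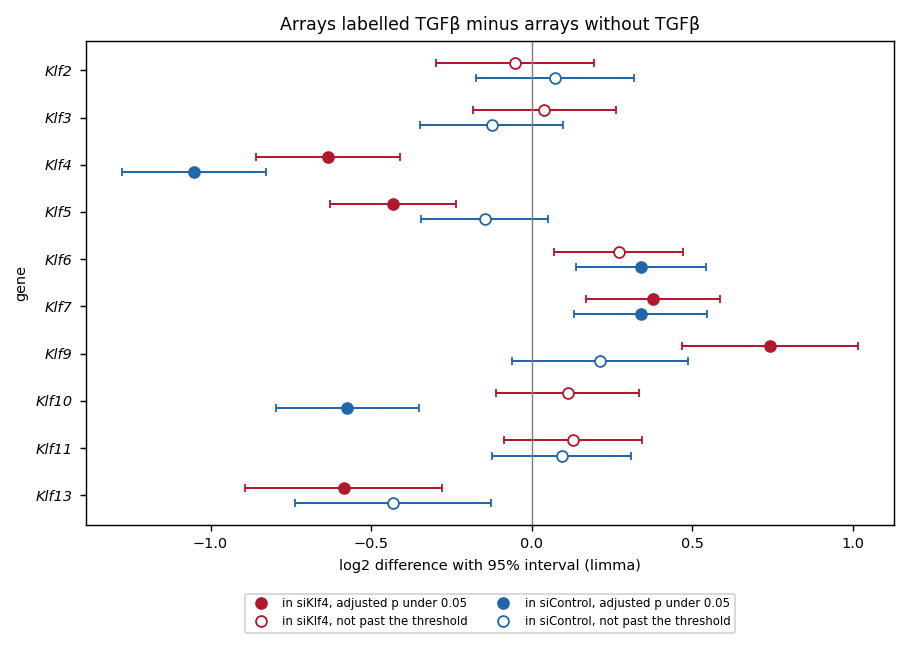
Log2 difference of arrays labelled TGFβ minus arrays without TGFβ (x axis) for the 10 Klf genes (y axis), in siKlf4 (red, upper of each pair) and in siControl (blue); bars are 95% intervals from limma and filled points have an adjusted p under 0.05. Klf4 is lower in both, at −0.63 in siKlf4 and −1.05 in siControl, and Klf10 is lower in siControl alone, at −0.57.

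Whether the siKlf4 difference depended on TGFβ was tested as an interaction, the difference with TGFβ minus that without. Of the 10 genes, 0 passed after adjustment by limma or by the ordinary analysis of variance, where limma called 0.547% of all genes positive and 0.978% negative, and 4 (Klf4, Klf5, Klf9 and Klf10) had an unadjusted limma p under 0.05. Klf10 came closest, with 0.69 (SE 0.14, adjusted p = 0.0512), from siKlf4 differences of 0.86 with TGFβ and 0.17 without. It passed when siKlf4 replicate 1 was left out (adjusted p = 0.0352) and under 5 other settings of the processing. Klf9 had 0.53 (adjusted p = 0.223), Klf4 0.42 (adjusted p = 0.245) and Klf5 −0.28 (adjusted p = 0.402), and the other 6 lay between −0.15 and 0.16.

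**Figure D4:**
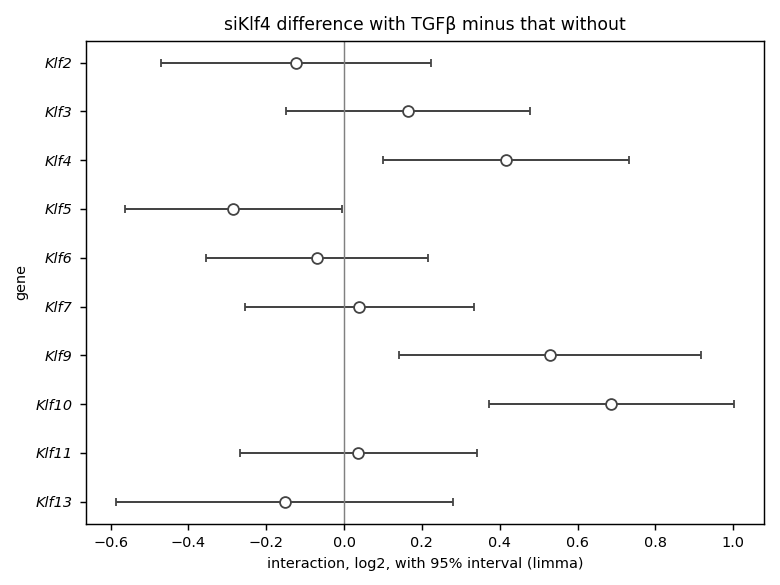
Interaction of siKlf4 and TGFβ (x axis, log2, the siKlf4 difference with TGFβ minus that without) for the 10 Klf genes (y axis); bars are 95% intervals from limma, unadjusted, and all points are open because no adjusted p was under 0.05. Klf10 is farthest from 0, at 0.69.

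Across the diagonal of the design, the arrays labelled siKlf4+TGFβ had 4 of the 10 genes higher (Klf6, Klf7, Klf9 and Klf11) and 2 lower (Klf4 and Klf5) than those labelled siControl, where 14.7% of all genes were higher and 15.3% lower. The arrays labelled siKlf4 had 5 higher (Klf4, Klf7, Klf9, Klf10 and Klf13) and 1 lower (Klf5) than those labelled siControl+TGFβ, where 11.5% of all genes were higher and 10.5% lower. Klf4 was thus 0.51 higher in the arrays labelled siKlf4 than in those labelled siControl+TGFβ (SE 0.099, adjusted p = 0.00509). Other genes were near the threshold: Klf10 at 0.29 between siKlf4+TGFβ and siControl (adjusted p = 0.0556) passed without siKlf4 replicate 1 or siKlf4 replicate 2 (0.0256 for each), Klf3 at −0.27 (0.0679) without siControl replicate 2 (0.0416) or either siKlf4 replicate (0.0492), and Klf6 at 0.25 between siKlf4 and siControl+TGFβ (0.0850) without siKlf4 replicate 2 (0.0491). Each of these differences also passed on all 8 arrays under the trend and robust options of eBayes and after renewed quantile normalization. None did under the ordinary analysis of variance. Ordered by group mean, Klf7 fell stepwise through siKlf4+TGFβ, siKlf4, siControl+TGFβ and siControl, and each neighbouring pair differed. Klf9 and Klf6 kept that order, but for Klf9 siControl+TGFβ and siControl did not differ beyond their spread (adjusted p = 0.340), and for Klf6 neither siKlf4+TGFβ and siKlf4 (0.0877) nor siKlf4 and siControl+TGFβ did (0.0850). For Klf11 the order was the same and no neighbouring pair differed. Klf5 ran the other way, highest in siControl and lowest in siKlf4+TGFβ, and only siControl+TGFβ and siControl did not differ (adjusted p = 0.361). For Klf10, siKlf4+TGFβ, siKlf4 and siControl were neighbours that did not differ and siControl+TGFβ was lowest, and for Klf13 siKlf4 was highest and the other 3 groups were neighbours that did not differ. No neighbouring groups differed for Klf2 or Klf3.

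Likeness between genes was measured as the root mean square difference of their centred log2 values over the 8 arrays, so that 0 is an identical pattern. Within the family, Klf2 and Klf3, which vary little, were closest at 0.17, followed by Klf6 and Klf11 at 0.18, Klf6 and Klf7 at 0.20, Klf2 and Klf11 at 0.23 and Klf7 and Klf9 at 0.23. Klf5 and Klf9 were farthest apart, at 1.27. Outside the family, of 6487 named genes that the F test called, those most like Klf4 were Slc25a1, the mitochondrial citrate carrier, at 0.0812, Pmm2, a phosphomannomutase of protein glycosylation, at 0.0956 and Cpeb4, which binds polyadenylation elements in mRNA, at 0.103, where the values of Klf4 itself vary around their mean by 0.471. Those most like Klf9 were Fosl2, an AP-1 subunit, at 0.109, Cish, an inhibitor of cytokine signalling, at 0.112 and Lamb3, a laminin chain of the epithelial basement membrane, at 0.114, where Klf9 varies by 0.682. Fosl2, for example, read 9.45 and 9.55 on the arrays labelled siKlf4+TGFβ, 8.89 and 8.94 on those labelled siKlf4, 8.08 and 8.15 on those labelled siControl+TGFβ and 7.98 and 7.89 on those labelled siControl.

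Of 8 other Klf genes, 7 were measured (Klf1, Klf8, Klf12, Klf14, Klf15, Klf16 and Klf17), of which 4 were above the dimmest 30% of genes. None of the 7 was called by limma or by the ordinary analysis of variance in any comparison, and at an unadjusted limma p under 0.05 the count was 1 for siKlf4 without TGFβ and 0 in the others. Of 9 Sp genes, 8 were measured, and Sp1, the ubiquitous GC-box factor, was the one called. Sp1 read 7.84 and 7.84 on the arrays labelled siKlf4+TGFβ, 8.21 and 8.17 on those labelled siKlf4, 8.08 and 8.14 on those labelled siControl+TGFβ and 8.30 and 8.17 on those labelled siControl, the siKlf4+TGFβ arrays being below the other 6. Its siKlf4 difference was −0.27 with TGFβ (adjusted p = 0.0394), which was lost without any of the 4 arrays compared (0.12 to 0.20), and −0.05 without TGFβ (adjusted p = 0.797). Its TGFβ difference in siKlf4 was −0.35 (adjusted p = 0.0216), also lost without any of the 4 arrays compared (0.0645 to 0.126), and it was −0.40 in siKlf4+TGFβ against siControl (adjusted p = 0.00471).

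Of 14 listed cofactors of Klf proteins, 12 were measured, and 2 were higher and 1 lower in siKlf4 both with and without TGFβ, near the shares of all genes (12.3% higher and 11.9% lower with TGFβ, 9.98% and 9.71% without). Ctbp2, the partner of Klf3, read 8.96 and 8.96 on the arrays labelled siKlf4+TGFβ, against 8.47 and 8.46 on those labelled siControl+TGFβ, and 8.89 and 9.04 on those labelled siKlf4, against 8.56 and 8.45 on those labelled siControl. Its differences were 0.50 with TGFβ (adjusted p = 0.00213) and 0.46 without (adjusted p = 0.00439). Sap30, a subunit of the Sin3 complex, differed by −0.69 with TGFβ (adjusted p = 0.00133) and −0.70 without (adjusted p = 0.00159), and the paralogue Sin3b by 0.73 with TGFβ (adjusted p = 0.000268) and 0.26 without (adjusted p = 0.0811). Hdac1, a histone deacetylase of that complex, read 10.54 and 10.56 on the arrays labelled siKlf4+TGFβ, 9.19 and 9.28 on those labelled siKlf4, 10.49 and 10.57 on those labelled siControl+TGFβ and 8.82 and 8.96 on those labelled siControl. The 4 arrays labelled TGFβ lay above the other 4, with TGFβ differences of 1.31 in siKlf4 (adjusted p = 4.71e-05) and 1.64 in siControl (adjusted p = 3.54e-05). Its siKlf4 difference without TGFβ of 0.35 (adjusted p = 0.0174) was lost without siControl replicate 1 (0.0964) or siKlf4 replicate 2 (0.0907) and in a fit on the 4 arrays compared (0.0766).

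Klf proteins are short-lived and are removed through ubiquitin ligases, and all 8 listed ligase genes were measured. In siKlf4, 5 were higher and 1 lower with TGFβ, and 3 higher and 1 lower without, where 12.3% of all genes were higher and 11.9% lower with TGFβ, and 9.98% and 9.71% without. Fbxo32, which encodes atrogin-1 and acts on Klf4, read 7.95 and 7.87 on the arrays labelled siKlf4+TGFβ, against 5.68 and 5.85 on those labelled siControl+TGFβ, and 7.81 and 7.73 on those labelled siKlf4, against 5.89 and 5.87 on those labelled siControl. It was 2.14 higher with TGFβ (4.42-fold, adjusted p = 6.41e-07) and 1.89 higher without (3.72-fold, adjusted p = 1.69e-06), with no overlap. Smurf1, which acts on Klf2 and on Smad proteins, was 0.83 higher with TGFβ (adjusted p = 6.07e-05) and 0.69 higher without (adjusted p = 0.000279). Wwp1, known to act on Klf5 and Klf2, was lower, by differences of −0.29 with TGFβ (adjusted p = 0.0229) and −0.32 without (adjusted p = 0.0158). The Wwp1 call with TGFβ was lost without any of the 4 arrays compared (0.0770 to 0.152), and that without TGFβ without siControl replicate 1 (0.0745) or siKlf4 replicate 2 (0.0679) and in a fit on the 4 arrays compared (0.0796). Fbxw7, which acts on Klf2 and Klf5, was 0.61 higher in siKlf4 with TGFβ (adjusted p = 0.000377), or 0.31 as the mean of its probe sets (0.0168), and differed by 0.19 without TGFβ (adjusted p = 0.133).

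**Figure D5:**
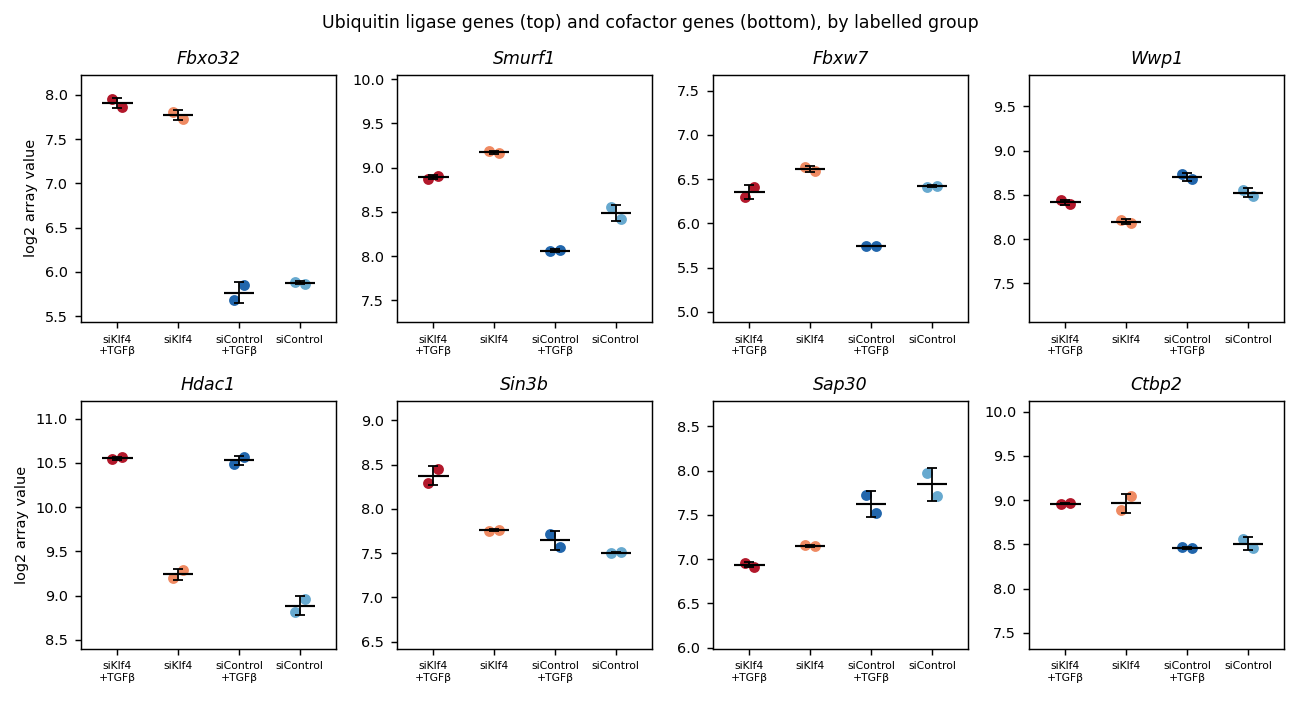
Log2 array values (y axis, the same span in each panel) of 4 ubiquitin ligase genes (top) and 4 cofactor genes (bottom) in the 4 labelled groups (x axis); each point is an array, each horizontal line a group mean and each bar ± 1 SD (n = 2). Fbxo32 separates the arrays by siRNA label and Hdac1 by TGFβ label.

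Of 23 genes known as targets of Klf factors, 19 were measured, and in siKlf4 5 were higher and 5 lower, both with and without TGFβ, beside the same shares of all genes as for the ligases. The median difference over the 19 was −0.05 with TGFβ, against −0.03 over all genes, and −0.13 without TGFβ, against 0.00 over all genes. Pdgfa, a growth factor activated by Klf5 in smooth muscle, read 9.74 and 9.94 on the arrays labelled siKlf4+TGFβ, against 8.06 and 8.20 on those labelled siControl+TGFβ, and 9.26 and 9.57 on those labelled siKlf4, against 7.31 and 7.42 on those labelled siControl. It was higher where Klf5 was lower, by 1.72 with TGFβ (adjusted p = 8.84e-06) and 2.05 without (adjusted p = 5.87e-06). Fgfbp1, a binding protein of fibroblast growth factors, read 4.72 and 4.87 on the arrays labelled siKlf4+TGFβ, against 7.03 and 7.55 on those labelled siControl+TGFβ, and 4.70 and 4.85 on those labelled siKlf4, against 6.96 and 6.46 on those labelled siControl. Its differences were −2.50 with TGFβ (adjusted p = 1.51e-05) and −1.93 without (adjusted p = 0.000116). Krt19, the simple-epithelial keratin, was lower by differences of −1.04 with TGFβ (adjusted p = 4.36e-05) and −0.99 without (adjusted p = 9.35e-05), while E-cadherin (Cdh1), a target of Klf4, differed by 0.22 with TGFβ (adjusted p = 0.0686) and −0.19 without (adjusted p = 0.138). Sprr1a, a gene of keratinocyte differentiation, was lower, by differences of −0.54 with TGFβ (adjusted p = 0.00109) and −1.34 without (adjusted p = 7.14e-06).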

How the data were processed

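RNA of NMuMG cells was profiled on 8 arrays, 2 per group, with groups taken from the submitters' labels. Raw intensities were normalized by the authors with RMA (background correction, quantile normalization and a summary per probe set), and the values as deposited are on the log2 scale, which was read from their range because the sources do not state the base. The submitters' processing notes name oligo 1.14.0. Of 34760 probe sets, 21640 have 1 symbol in the platform annotation, 1321 several and 11799 are not listed. Of a gene's probe sets with 1 symbol, the one with the highest mean was kept, which left 19937 genes. Each Klf gene has 1 probe set.

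Groups were compared in R 4.3.3 with limma 3.58.1 (lmFit with 1 mean per group over all 8 arrays, eBayes without trend or robust options, Benjamini-Hochberg adjustment, threshold 0.05), the residual degrees of freedom being 4 and the prior 4.93. The fit was tested on simulated data. An ordinary one-way analysis of variance, the test named in the study's methods, was an alternative. The Klf genes, the gene lists and the genes named from them were chosen with earlier results of these data known. All 10 Klf genes are named, with the 7 other Klf genes measured and the genes most like Klf4 and like the member with the widest range. Up to 4 genes each are named of the Sp, cofactor and ligase lists, and more of the cell type markers. Of the Klf targets, Pdgfa, Fgfbp1, Krt19, Cdh1, Sprr1a, Smad7, Snai1, Tgfbr1 and Atf3 are named. Pdgfa, Krt19, Cdh1, Snai1 and Tgfbr1 were chosen after their values were seen. Motifs were counted in RefSeq promoter windows. Signal over background is not among the values used here, and the number of arrays limits the precision. ChIP and other assays of the study were not analysed here.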

Additional observations from a re-analysis of the deposited data

Results flagged for a closer look

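The siKlf4 difference itself differed between the settings with and without TGFβ for 2 listed target genes, by the limma interaction (the difference with TGFβ minus that without). For Atf3, a stress-induced transcription factor, it was 1.16 (SE 0.16, adjusted p = 0.0128). Atf3 read 8.21 and 8.44 on the arrays labelled siKlf4+TGFβ, against 7.89 and 8.02 on those labelled siControl+TGFβ, and 8.02 and 7.79 on those labelled siKlf4, against 8.71 and 8.67 on those labelled siControl, which makes it higher in siKlf4 with TGFβ (0.37, adjusted p = 0.0366) and lower without (−0.79, adjusted p = 0.000831). Its interaction was lost without siControl+TGFβ replicate 1 (adjusted p = 0.0666), siControl+TGFβ replicate 2 (0.0577) or siKlf4+TGFβ replicate 2 (0.0693) and under the ordinary analysis of variance (0.155). The Atf3 call with TGFβ was lost without siControl+TGFβ replicate 1 (0.211), siControl+TGFβ replicate 2 (0.0763) or siKlf4+TGFβ replicate 2 (0.262).

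For Sprr1a the interaction was 0.80 (SE 0.12, adjusted p = 0.0161). Sprr1a read 8.67 and 8.68 on the arrays labelled siKlf4+TGFβ, against 9.26 and 9.17 on those labelled siControl+TGFβ, and 8.11 and 7.98 on those labelled siKlf4, against 9.39 and 9.37 on those labelled siControl. The interaction was lost without siControl+TGFβ replicate 1 (adjusted p = 0.0666), siControl+TGFβ replicate 2 (0.0967), siKlf4+TGFβ replicate 1 (0.0886) or siKlf4+TGFβ replicate 2 (0.0824), and under the ordinary analysis of variance (0.106).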

How the results depend on the processing

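Of 34 calls of a Klf gene in a comparison, the interaction included, 24 were kept under every alternative run, and 0 directions were reversed. The alternatives were the replicate block, the ordinary analysis of variance, trend and robust options of eBayes, a fit on the compared arrays alone, renewed quantile and cyclic loess normalization, the mean of a gene's probe sets, a filter on the dimmest 30% of genes, and each array left out in turn. The calls kept were unevenly spread. All calls across both diagonals were kept, but of those for TGFβ in siKlf4 or siControl only the Klf4 calls were. Of the siKlf4 calls, those of Klf11, with and without TGFβ, and of Klf13 without TGFβ were not kept throughout. Each Klf gene has 1 probe set, so the mean of probe sets cannot change its values and is left out of the next count. Over 1040 recomputed gene differences, 948 kept their side of the threshold, 52 lost a call and 40 gained one. Under the ordinary analysis of variance 2 Klf genes were called for TGFβ in siKlf4, against 5 in limma, and 1 for TGFβ in siControl, against 4 in limma, and the calls of Klf9 (adjusted p = 0.0647) and Klf10 (0.0544) were among those lost. With an array left out, the counts ran from 5 to 7 for siKlf4 with TGFβ, 5 to 7 without TGFβ, 2 to 5 for TGFβ in siKlf4, 1 to 4 for TGFβ in siControl, 6 to 8 and 6 to 7 for the 2 diagonals, 7 to 8 for the F test and 0 to 1 for the interaction. For the interaction, Klf10 was the 1 Klf gene called under the trend and robust options (adjusted p = 0.0109), the dim filter (0.0387), quantile (0.0434) and cyclic loess normalization (0.0466) and the replicate block (0.0468). The replicate block also lost Klf7 for TGFβ in siControl (0.0552) and gained Klf10 in siKlf4+TGFβ against siControl (0.0445). The labels do not say that the replicate numbers pair the arrays, and the deviations of same-numbered arrays correlated at 0.382 for siKlf4 and siControl and between −0.050 and 0.038 for the other 5 pairs of groups. The causes of these changes were not tested.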
